A study of Homo sapiens with 4 samples.

Results

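IGF2BP3 is an RNA-binding protein that reads m6A-modified mRNAs, and RNA immunoprecipitation followed by sequencing (RIP-seq) recovers the RNA that comes down with it. The mRNAs described here encode 50 DNA repair proteins, listed by name from the Fanconi, homologous recombination, mismatch, excision and end-joining pathways, out of 19688 protein-coding genes with a canonical coding transcript. All 4 samples of the series were OE-19, a permanent line grown from an adenocarcinoma of the esophagogastric junction. They were 2 replicates of the pull-down with an anti-IGF2BP3 antibody (replicate 1 and replicate 2) and 2 inputs without antibody, with no drug treatment or genetic change named. The labels of all 4 name UV fixation of the cells, whereas the study's RIP method names no fixation step. The study calls its replicates biological, and the labels do not say whether they were separate cultures. Peaks of the pull-down were assigned to a repair gene when the summit, the highest point of the peak, lay in an exon of that gene. Of 44622 peaks in replicate 1, 311 had such a summit, and of 42723 peaks in replicate 2, 296 did (303.5 ± 10.6, SD, n = 2).

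DNA repair proceeds by several pathways that differ in the damage they act on. The Fanconi core complex ubiquitinates FANCD2 and FANCI at DNA crosslinks, BRCA1, PALB2 and BRCA2 act together in homologous recombination, and RIF1 and TP53BP1 hold back the resection of broken ends. Other members act in excision repair, correct mismatches, copy past lesions or seal nicks.

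A peak is a place where the pull-down exceeded the local background that the peak caller estimated, and its fold enrichment is that ratio at the summit. It is not an expression level, input levels were not analysed here, and a gene without a peak may be weakly expressed, unbound or below the detection limit of these libraries. Those cannot be told apart. The lists also carry little information on the cell type. Of 6 epithelial and OE-19 markers, CDH1 alone had a summit (4 in replicate 1 and 8 in replicate 2), while EPCAM, KRT8, KRT18, KRT19 and ERBB2 had none. Of 5 blood, stroma and vessel markers, CD68 had 2 and 5 summits, COL1A1 had 0 and 5, and PTPRC, PECAM1 and ACTA2 had none.

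Most repair mRNAs carried peaks, and the counts varied by pathway. Of the 50 genes, 34 (68.0%) had an exonic summit in both replicates, against 28.1% of all protein-coding genes. In at least 1 replicate 42 had one, against 36.2% of all. Every gene of end resection (5 of 5), of the Fanconi ID complex with SLX4 (3 of 3) and of the translesion and theta polymerases (4 of 4) had a summit in both replicates. The same held for 5 of 6 homologous recombination genes, 4 of 5 mismatch repair genes, 3 of 4 RecQ helicases and 3 of 5 genes of end joining and break pathway choice. It held for 3 of 6 nucleotide excision repair genes, 2 of 4 of single-strand break repair and ligation, and 2 of 8 of the Fanconi core complex. These counts were compared with the background share only, and no test was made. The groups also differed in median length of coding sequence. It was 1770 nt in the Fanconi core complex, 2538 nt in end resection and 5761.5 nt in the translesion and theta polymerases. Its part in the differences was not tested.

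**Figure D1:**
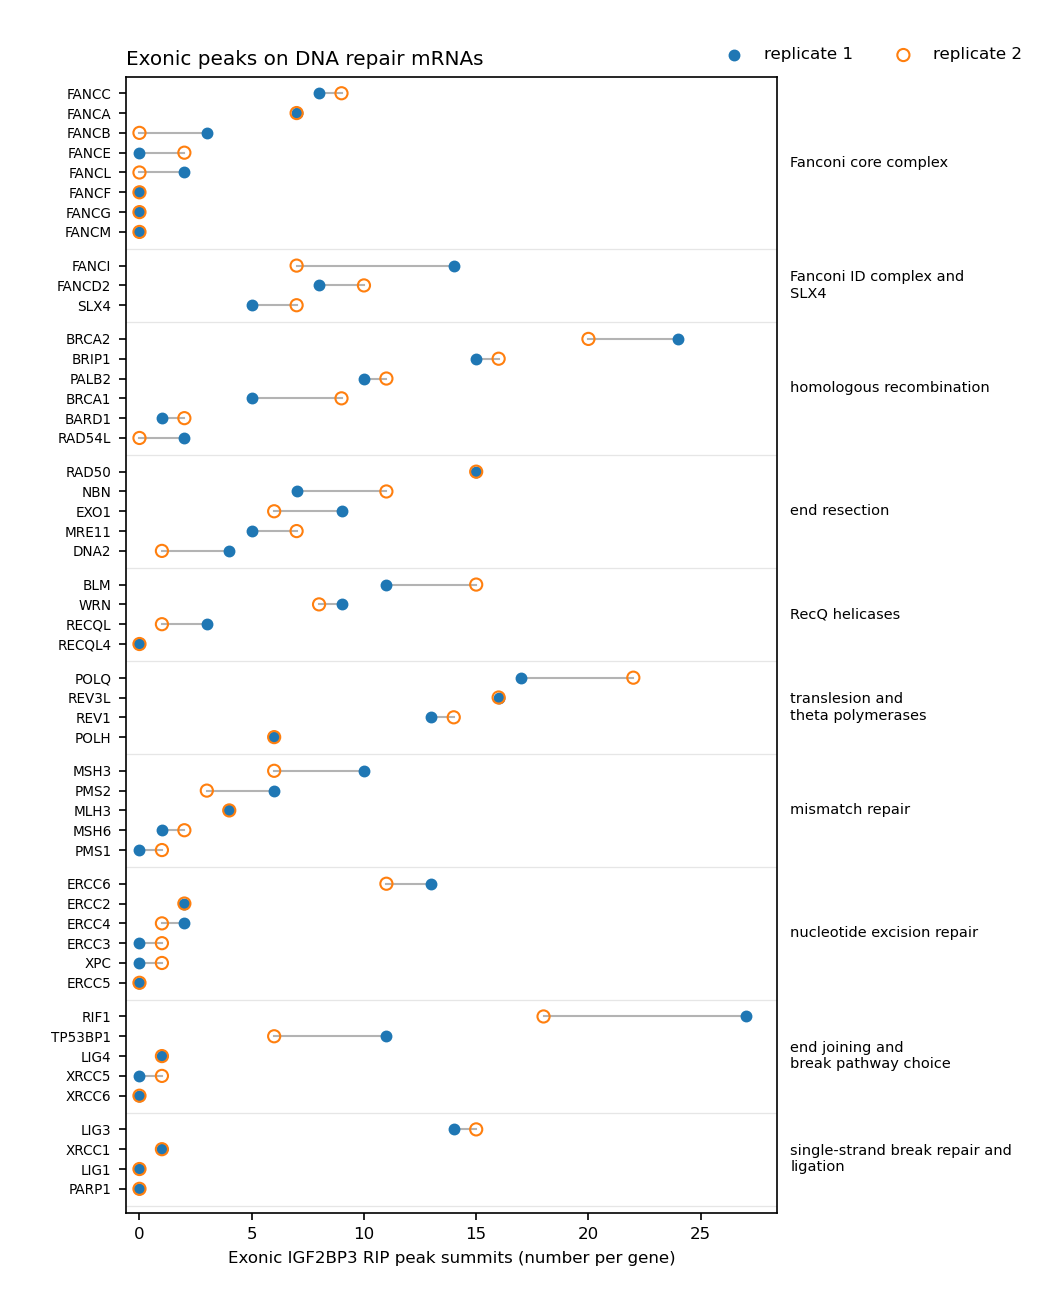
Number of exonic peak summits (x axis) on each of the 50 repair genes (y axis, grouped by role), with filled points for replicate 1, open points for replicate 2 and a line joining them. RIF1 and BRCA2 had the most, and 8 genes lie at 0 in both replicates.

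The 8 genes without an exonic summit in either replicate were FANCF, FANCG and FANCM of the Fanconi core complex, the helicase RECQL4, the nuclease ERCC5, the Ku subunit XRCC6, the replicative ligase LIG1 and the break sensor PARP1. Their coding sequences (CDS) ran from 1122 nt in FANCF to 6144 nt in FANCM, so short and long ones were among them. Another 8 had summits in a single replicate. FANCB had 3, and FANCL and RAD54L had 2 each, all in replicate 1. FANCE had 2, and PMS1, ERCC3, XPC and XRCC5 had 1 each, all in replicate 2. XRCC5 encodes the partner of XRCC6 in Ku, the complex that caps broken ends for end joining, and LIG4, the ligase of that pathway, had 1 summit in each replicate with folds of 1.90 and 2.12.

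The members had long coding sequences, and the share with peaks rose with that length. Among members with a CDS of 1000 to 2000 nt, 3 of 8 had a summit in both replicates (37.5%), where 28.46% of all genes of that length did. From 2000 to 3000 nt the values were 9 of 16 (56.3%) and 43.9%. From 3000 to 4500 nt they were 15 of 18 (83.3%) and 52.5%, and from 4500 nt upward 7 of 8 (87.5%) and 53.4%. In each length class the members' share was above that of all genes, with 8 to 18 members per class.

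Per length, the 34 genes with a summit in both replicates had a median of 1.28 summits per kb of mRNA, and all 5523 such genes had 1.11. The median of their highest fold was 3.67 in replicate 1 and 3.48 in replicate 2, beside 3.64 and 3.51 over all such genes. The share of repair genes with peaks was thus above the background, while the fold of their best peaks lay near it. The members were chosen with earlier results of these data known, which may raise their share. Of 109 other repair genes, 39.4% had a summit in both replicates. Numbers of summits agreed between replicates (Pearson's r = 0.901, Spearman's rho = 0.878 over the 42 genes with any, which share libraries and differ in length). Highest folds did so more loosely (r = 0.685, rho = 0.675 on the log2 scale over 34 genes).

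RIF1, which steers broken ends away from resection, had the most summits, 27 in replicate 1 and 18 in replicate 2. BRCA2, a central protein of homologous recombination, followed with 24 and 20. POLQ, the polymerase of microhomology-mediated end joining, had 17 and 22. REV3L, the catalytic subunit of translesion polymerase zeta, had 16 in both, and its partner REV1 had 13 and 14. BRIP1, a helicase that binds BRCA1, had 15 and 16, RAD50 of the end-processing MRN complex had 15 and 15, and LIG3, which seals single-strand breaks, had 14 and 15. Between replicates these 8 genes differed by 0 to 9 summits, most in RIF1. By length the order changed, and REV1 had the highest mean of all members, with 2.75 and 2.96 summits per kb, ahead of PALB2 with 2.50 and 2.75 and BLM with 2.10 and 2.86. RIF1 had 1.84 and 1.23 summits per kb and REV3L had 1.49 in both, on mRNAs of 14662 and 10706 nt. Their means of 1.53 and 1.49 per kb lay above the medians of 1.28 for members and 1.11 for all genes with a summit in both. The part of mRNA length in their counts was not tested.

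Many of these peaks overlapped between the replicates. Over the members 155 pairs of overlapping peaks linked the lists, in 26 of the 34 genes (76.5%, against 82.1% of all genes with a summit in both). The summits of a pair lay a median of 35 nt apart, 98 pairs lay within 50 nt and 5 at the same base. Pairs were defined by overlap, and member peaks had median widths of 97 and 101.5 nt. Short distances thus follow largely from the pairing and are no separate measure of agreement. BRCA2 had 15 peaks of each list overlapped by the other, POLQ 14, RIF1 12 and BRIP1 11. Sharing and fold were lower than over the whole list. Of member summits, 51.1% ± 1.34 (SD, n = 2) belonged to a peak shared by the replicates, against 63.1% ± 2.65 of summits on all mRNAs, and the median fold was 2.78 ± 0.0391 against 2.94 ± 0.0127. The gap in fold exceeded the SD between replicates, but that SD does not measure how a median varies between sets of genes. The 2 sharing values count the same overlaps from either list, so their SD does not measure how sharing varies between replicates. No test was made, since 2 lists give none.

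At a q of at most 0.05 in the caller's correction, 17 member peaks in replicate 1 and 9 in replicate 2 remained. These were 5.54% and 3.08% of member summits, below the 10.3% and 7.88% of summits on all mRNAs. They lay on 14 genes (41.2% of 34, against 36.4% of all genes with a summit in both). Only BRCA2, POLQ, RAD50 and TP53BP1 had such a peak in both replicates (11.8%, against 17.8%). The RAD50 peaks lay in exon 23 in replicate 1 and exon 14 in replicate 2. Both also lay in exons of ENSG00000283782, a protein-coding gene on the same strand. On exons of RAD50 alone its highest folds were 1.94 and 2.67. Among pairs, 2 had a q of at most 0.05 on both sides. One was in BRCA2 exon 20, with folds of 3.91 and 4.05 and q of 0.0211 and 0.00424. The other was in the 3′ UTR of TP53BP1, with folds of 5.17 and 4.92 and q of 0.0205 and 0.0253. The TP53BP1 3′ UTR overlaps exons of TUBGCP4 on the opposite strand, and the lists give no strand, so these peaks cannot be assigned to 1 of the genes. On exons of TP53BP1 alone its highest folds were 3.15 and 2.77.

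**Figure D2:**
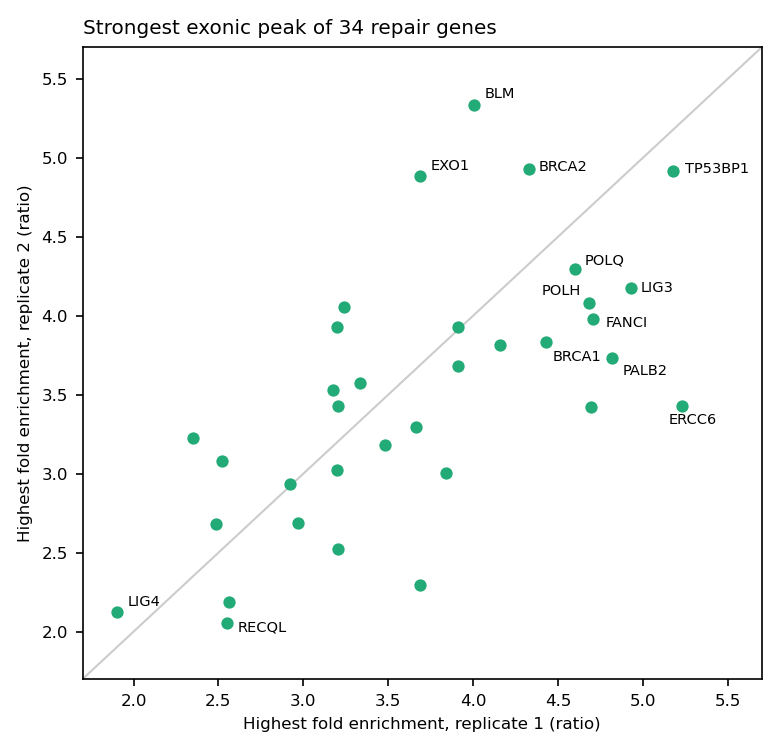
Fold enrichment of the strongest exonic peak in replicate 1 (x axis) and in replicate 2 (y axis) for the 34 repair genes with a summit in both, 1 point per gene, with the line of equal values in grey. BLM lies above the line (4.004 and 5.34) and ERCC6 below it (5.23 and 3.43), while the TP53BP1 point rests on peaks that also lie in TUBGCP4.

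The highest folds of the members lay between 5.34 and 1.90 in genes with a summit in both replicates, where the highest fold on any mRNA was 11.7. In BLM, the helicase lost in Bloom syndrome, a peak in exon 13 reached 5.34 in replicate 2 with a q of 0.000117, but no peak of replicate 1 overlapped it, and the highest there was 4.004 in exon 21. In ERCC6, which acts in transcription-coupled repair, exon 15 reached 5.23 with a q of 0.00939 in replicate 1 alone, and the highest of replicate 2 was 3.43 in exon 11. In LIG3 exon 14 reached 4.93 in replicate 1 alone, while exon 18 had 4.56 and 4.17 in an overlapping pair. POLQ exon 23 had 4.60 and 4.30, the highest pair lying in exons of a single gene. FANCI exon 15 had 4.70 and 3.28. POLH, the polymerase that copies past ultraviolet lesions, had 4.68 and 2.81 in exon 10. In BLM, ERCC6 and LIG3 the peak with the highest fold was thus seen in a single replicate.

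The 30 bases around the summits of the strongest overlapping pair are shown, since a pair is a place that both lists mark. Genes were chosen by their highest fold, averaged over the replicates. In BLM, ERCC6 and LIG3 the pair is weaker than the peak seen in a single replicate. Capitals mark TGGAC, which holds the GGAC core of m6A sites, or CACA, a CA-rich element of the kind IGF2BP proteins are known to bind. Sequences are those of the mRNA strand, 5′ to 3′, in hg38, with the replicate of higher fold given, and both for BRCA2.
BRCA2 exon 16, replicate 1 (chr13:32357836-32357865, plus strand): aaagtttaTGGACtggaaaaggaatacagt
BRCA2 exon 16, replicate 2 (chr13:32357750-32357779, plus strand): gtatggcgtttctaaacattgcataaaaat
POLQ exon 23, replicate 1 (chr3:121468383-121468412, minus strand): accaaatattcagaatgtgccaagagattt
LIG3 exon 18, replicate 1 (chr17:35001926-35001955, plus strand): caaggagaaggcagacttcactgtagtggc
BLM exon 18, replicate 2 (chr15:90803668-90803697, plus strand): cttatgtgatgctcggaaataaagcccaaa
POLH exon 10, replicate 1 (chr6:43610610-43610639, plus strand): cctcagcagcctgcgccgctgctgtgccct
FANCI exon 15, replicate 1 (chr15:89281225-89281254, plus strand): taaagtCACAgaagcttttgactatttgtc
ERCC6 exon 11, replicate 2 (chr10:49478373-49478402, minus strand): gaagtcagatgtcaagatgagcctttcttt
All are coding sequence. The BRCA2 summits of the replicates lay 86 nt apart, at codon 2576 with a fold of 3.80 in replicate 1 and at codon 2547 with 4.93 in replicate 2, and the TGGAC stood in the first window only.

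Over all members the motifs were no more frequent at summits than in repair coding sequence as a whole, apart from CACA. The comparison is loose, because some summit windows lie in UTRs. In windows of 101 nt centred on the summit and read along the mRNA strand, TGGAC occurred in 9.91% ± 1.86 (SD, n = 2) of member windows. It occurred in 10.4% of 1756 windows of that length cut end to end from member coding sequences. GGAC, which includes every TGGAC, was in 23.5% ± 2.66 of summit windows and 27.3% of cut windows, and CACA was in 37.0% ± 1.32 and 33.1%. On all mRNAs the same pattern appeared, with TGGAC in 12.9%, GGAC in 32.0% and CACA in 38.5% of summit windows and in 15.3%, 37.6% and 35.1% of cut windows. Base composition moved with these shares. Member summit windows had a median GC content of 42.6% against 47.5% on all mRNAs, and cut windows of member coding sequence also had 42.6%, against 51.5% for all genes. Its part in the motif shares was not tested.

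Peaks on repair mRNAs lay mostly in the coding sequence. Of the summits on canonical member mRNAs (307 and 292), 86.0% ± 1.44 (SD, n = 2) lay in the CDS outside a window reaching 200 nt to each side of the stop codon, 5.51% ± 0.0410 in that window, 7.20% ± 0.963 in the 3′ UTR and 1.34% ± 0.520 in the 5′ UTR. On all mRNAs the shares were 71.5% ± 1.16, 8.52% ± 0.183, 16.2% ± 0.890 and 3.72% ± 0.0874. The members' mRNAs have relatively more coding sequence, 59.3% of the length of those with a summit against 41.0% for all, and less 3′ UTR, 31.4% against 46.9%. The 3′ UTRs thus held fewer summits than their length share in both sets. In the stop codon window the length shares were 6.39% for members and 7.65% for all. The share of summits there was below that of length in members and above it on all mRNAs. Among members RAD50 had the most summits in the 3′ UTR, 5 of 15 in each replicate. Of the RAD50 summits, 14 in each list also lay in exons of ENSG00000283782, a protein-coding gene on the same strand, and cannot be separated from it.

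**Figure D3:**
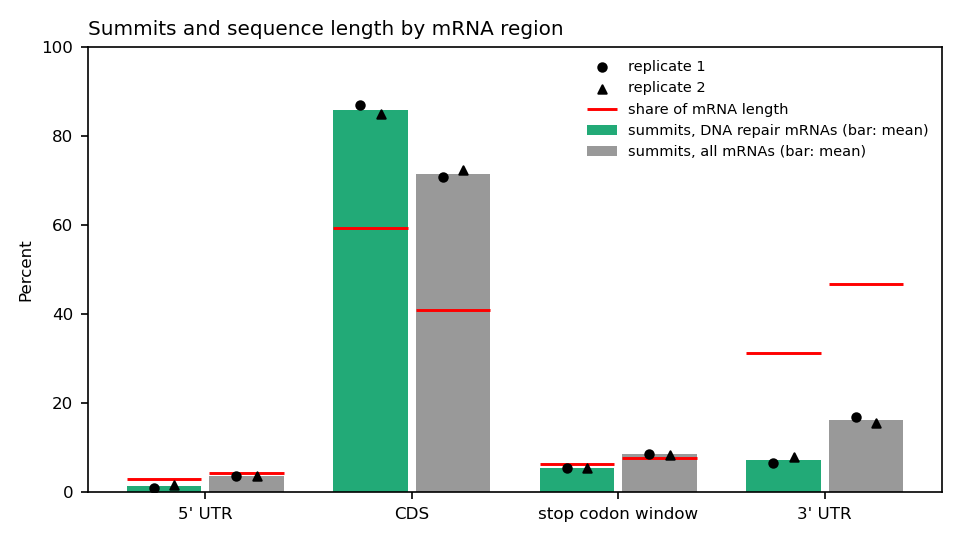
Share of summits (bars, mean of the replicates, with a dot for replicate 1 and a triangle for replicate 2) and share of mRNA length (red lines) in the 5′ UTR, the CDS, the stop codon window and the 3′ UTR, in percent, for repair mRNAs (green) and all mRNAs (grey). The CDS bar is 86.0% on repair mRNAs and 71.5% on all mRNAs.

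Of 5 equal parts of the coding sequence, the last held 27.8% ± 0.932 (SD, n = 2) of member CDS summits and the first 15.5% ± 0.233. On all mRNAs the first held 15.98% and the last 21.6%. BRCA1 was an example. This ubiquitin ligase subunit of homologous recombination had 5 and 9 summits, with highest folds of 4.43 in its last exon in replicate 1 and 3.83 in exon 12 in replicate 2. All 5 summits of replicate 1 and 6 of 9 in replicate 2 lay behind exon 10, the exon that encodes most of the protein. That exon has 3426 nt and makes up 61.3% of the CDS, and it held 0 and 1 summits.

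Fewer summits per kb in long coding exons were seen in every repair mRNA with such an exon and CDS summits in both replicates. The extent varied, from 0 per kb in both replicates in TP53BP1 to 1.36 and 2.04 in PALB2. Of the 12 members with at least 1000 nt of coding sequence in 1 exon beside other coding exons, 9 had CDS summits in both replicates. In 9 of 9 the long exons held fewer summits per kb than the rest of the CDS, in both replicates, against 78.7% of all 767 such genes. Pooled over the 12 genes, long exons held 0.531 and 0.590 summits per kb and the rest 2.37 and 2.14, a ratio of 0.224 and 0.275. Over all 2064 such genes the ratios were 0.195 and 0.184. On the members' canonical mRNAs, no exon shorter than 830 nt held more than 1 summit in a replicate. Such an exon with 1 summit has a high number per kb, 27.8 in the 36 nt of FANCD2 exon 14.

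**Figure D4:**
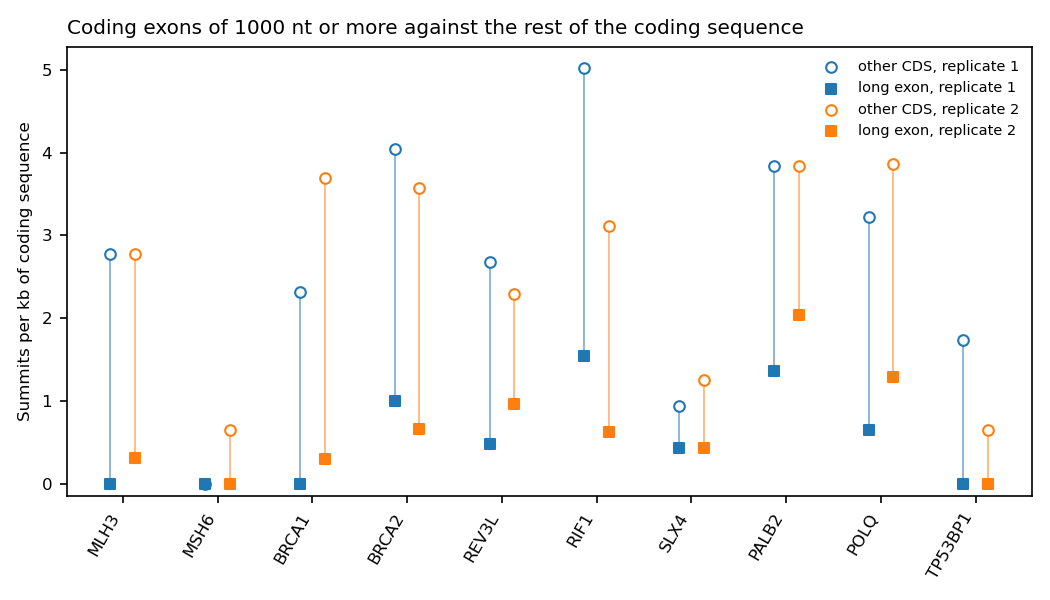
Summits per kb of coding sequence (y axis) in coding exons with at least 1000 nt of CDS (squares) and in the rest of the CDS (circles), in replicate 1 (blue) and replicate 2 (orange), for the 10 repair genes with such an exon and any CDS summit (x axis). In 9 genes the squares lie below the circles in both replicates, and MSH6 had no CDS summit in replicate 1.

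In BRCA2 exons 10 and 11, which hold 59.0% of its CDS, had 6 of 23 and 4 of 19 CDS summits, and exon 11 alone, with 4932 nt and the BRC repeats, had 5 and 4. RIF1 exon 30, with 43.6% of the CDS, had 5 of 26 and 2 of 15. REV3L exon 13 (44.3%) had 2 of 16 and 4 of 16, and POLQ exon 16 (40.0%) had 2 of 17 and 4 of 22. In PALB2, the bridge between BRCA1 and BRCA2, exon 4 (41.4%) had 2 of 10 and 3 of 11. These exons held summits in both replicates. In MLH3, a mismatch repair protein, exon 2 (75.2%) had 0 of 3 and 1 of 4. Exon 12 of the scaffold SLX4 (42.0%) had 1 of 4 and 1 of 5. Exon 12 of TP53BP1 (22.4%) had none of 8 and none of 3, and was empty in both replicates. MSH6, which recognises mismatches, had 62.4% of its CDS in exon 4 with no summit in either list, and 1 summit in each list elsewhere also lay in FBXO11. FANCM exon 14 and ERCC5 exon 8 lie in genes without summits.

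Counted over all members by whole exon length, exons of at least 1000 nt held 25.7% of the coding sequence and 11.5% ± 0.602 of the CDS summits, against 25.1% and 9.39% ± 0.722 over all genes. The peaks were called along the genome, where exons lie apart, and the lists were compared with no other caller. The part of exon structure in calling was not tested.

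**Figure D5:**
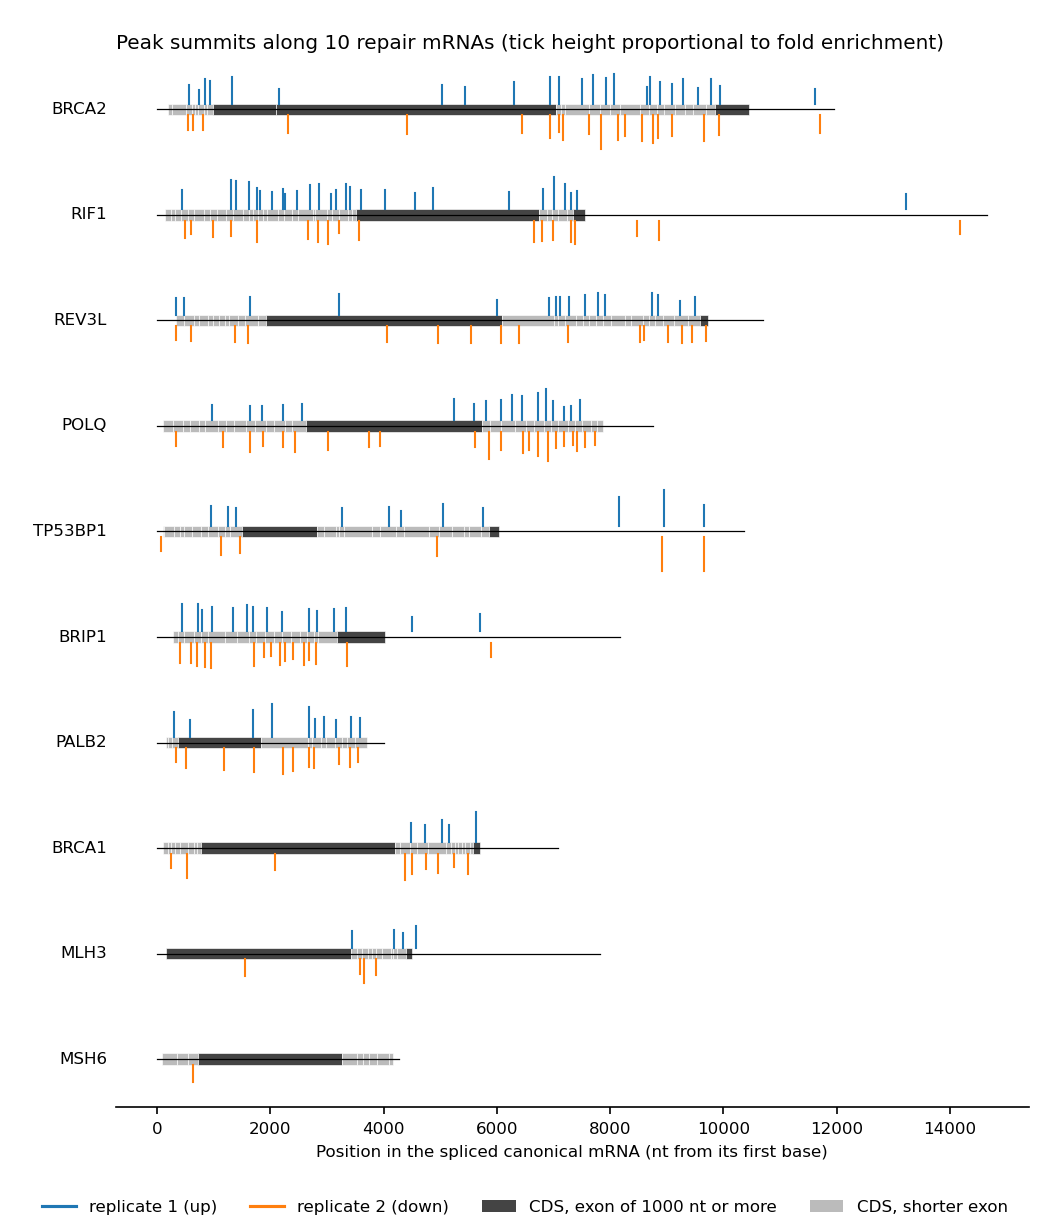
Summits along 10 spliced repair mRNAs (x axis, nt from the first base), with replicate 1 as blue ticks upward and replicate 2 as orange ticks downward, tick height proportional to fold enrichment. Coding sequence is a box, dark in exons of 1000 nt or more (last exons counted with their 3′ UTR), and UTRs are a line. The summits of BRCA2, POLQ and BRCA1 crowd behind the long dark exon, and those of BRIP1 are spread over its short exons.

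The members outside the 8 with the most summits had lower mean counts by that choice. Some of them, such as BLM and ERCC6, were among the 8 with the highest folds. In the Fanconi core complex FANCA had 7 and 7 summits with highest folds of 2.92 and 2.93, and FANCC had 8 and 9 with 3.84 and 3.001. FANCD2, ubiquitinated with FANCI, had 8 and 10 summits with 3.33 and 3.57, whereas FANCI had 14 and 7 and so moved more between replicates. PALB2 had 10 and 11 summits with 4.82 and 3.73, and BARD1, the partner of BRCA1, had 1 and 2. In end resection MRE11 had 5 and 7, NBN 7 and 11, EXO1 9 and 6, and DNA2 4 and 1. EXO1, a nuclease that resects broken ends, had a pair in exon 14 whose summits fell on the same base at codon 712, with folds of 3.09 and 4.88.

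Among the RecQ helicases BLM had 11 and 15 summits, WRN 9 and 8 and RECQL 3 and 1. POLH had 6 in each list. In mismatch repair MSH3, which recognises insertion loops, had 10 and 6, PMS2 had 6 and 3, MLH3 had 4 and 4 and MSH6 had 1 and 2. The only summit of PMS1 also lay in ORMDL1. In nucleotide excision repair ERCC6 had 13 and 11 summits, while the helicase ERCC2 had 2 and 2 and the nuclease subunit ERCC4 had 2 and 1. Pooled over the group this came to 0.564 and 0.498 summits per kb, near the 0.572 and 0.552 of all protein-coding mRNAs, where the polymerases had 1.60 and 1.78. XRCC1, the scaffold on which LIG3 works, had 1 and 1 summit beside the 14 and 15 of LIG3. Members of 1 complex could thus differ widely, as XRCC1 and LIG3 did.

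Outside the named members, a list of 109 other repair genes had 43 with a summit in both replicates (39.4%). Those with most summits were the damage kinases ATM (30 and 36) and ATR (32 and 28), the damage response adaptors PAXIP1 (17 and 19) and TOPBP1 (16 and 17), and PRKDC (12 and 18), the kinase of end joining. Damage signalling had 9 of 16 genes with a summit in both, and base excision and single-strand break repair 3 of 20. Pooled over the list, there were 0.832 and 0.794 summits per kb, between the members (1.12 and 1.06) and all protein-coding mRNAs.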

How the data were processed

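Peak lists of the 2 IGF2BP3 RIP replicates, each called per sample by the authors, were analysed, and the 2 inputs were not analysed here. The study's methods name Tophat2 for mapping to hg38 and MACS2 for peak calling, while the submitters' processing notes name fastp, HISAT2 and MACS2. The control given to the caller is not stated. The deposited fold enrichment is a ratio of pileup to local background. Values of −log10 p and −log10 q were deposited as the caller gave them, and the deposited score is 10 times the −log10 p, cut to a whole number. The smallest −log10 p was 2.0003 and 2.00226, so the lists hold weak peaks too. Read depth is unknown, and no counting interval was given.

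Sample groups came from the sample titles. Summits were matched to exons of GENCODE release 44 without strand, and each was given to every gene with an exon there (28 and 27 member summits lay in exons of several genes). Positions used the canonical coding transcript. Peaks overlapping by at least 1 bp were shared. No test was possible between peak lists of 1 group, so values are given per replicate or as mean ± SD beside those of all genes. Scripts (Python 3.11.15, pandas 2.3.3, numpy 2.4.6) were tested on simulated data. Alternatives covered stricter limits on q, p and fold, the definitions of sharing, transcript, stop window and motif window, and each replicate left out.

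The members and lists were chosen with earlier results of these data known. All members are accounted for. Single peaks are described for the 8 genes with most summits, the 8 with the highest folds, BRCA1 and BRCA2, and for the other repair genes the 5 with most summits are named. Highest folds were ranked by their mean over the replicates. The windows printed are those of the genes with the highest folds, without TP53BP1, whose strand is unknown. Comparison of exon lengths, and the peaks named in PALB2 and EXO1, were chosen after the data were seen.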

Additional observations from a re-analysis of the deposited data

Results flagged for a closer look

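Outside the exonic peaks, 4 peaks in replicate 1 and 8 in replicate 2 had the summit in an intron of a repair gene. They were flagged for passing a limit of 3, which is set against a count of 0 and not against the number expected in introns. These intronic peaks made up 1.27% and 2.63% of all peaks on these genes, below the 3.20% and 2.91% of all peaks in the lists. In replicate 1 they lay in FANCI, FANCL, RIF1 and RAD50, and in replicate 2 in EXO1, TP53BP1, FANCL, RIF1, MSH3, REV3L and FANCC, which had 2. Their highest folds were 2.98 and 3.24. None of the 4 in replicate 1 overlapped a peak of the other list, and 3 in replicate 2 did, in TP53BP1, MSH3 and FANCC.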

How the results depend on the processing

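Of 67 values under other settings, leaving no replicate out, 23 stayed within the spread between replicates, or within 1.5 times for counts, and 44 moved. Limiting peaks to a q of at most 0.05 left 4 genes with a summit in both replicates, 13 summits per replicate, 17.0% shared, a median fold of 4.54 and a median of 0 summits per kb, with 0% in the stop codon window, 14.1% in the 3′ UTR and CACA in 32.0%. A p of at most 1e-05 left 9 genes and 36.5 summits, 21.1% shared, a median fold of 3.84, 0 per kb, 92.9% in the CDS, 2.17% in the stop codon window, 4.93% in the 3′ UTR, GGAC in 18.8% and CACA in 30.02%. A fold of at least 5 left 0 genes and 1.5 summits per replicate, 0% shared, a median fold of 5.27, 0 per kb, 75% in the CDS, 0% in the stop codon window, 25% in the 3′ UTR, and TGGAC and CACA in 0%. These limits leave few peaks by construction. Sharing was 30.4% when at least 50% of both peaks had to overlap and 44.4% when summits had to lie within 100 nt. The stop codon window held 5.04% with the longest coding sequence, 1.99% with 100 nt on either side and 3.92% among shared peaks, in which CACA was at 40.7%. With 25 nt on either side of the summit TGGAC, GGAC and CACA were in 4.15%, 10.5% and 22.7% of windows, and with 100 nt in 19.8%, 44.5% and 58.1%, as window length alone would move them.

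Among alternatives chosen after seeing the data, the share of CDS summits in long exons was 15.01% with exons of at least 500 nt (33.99% of coding sequence), 9.27% with at least 2000 nt (20.1%), 0% at a q of at most 0.05 and 2.22% at a p of at most 1e-05. It stayed below the length share in each. Counting only summits in exons of a single gene left 33 genes in both replicates and 276 summits per replicate. With 2 replicates, each one alone lies within 1 SD of the mean, so leaving one out says nothing on stability. No paired analysis was possible because no input list was analysed and no result comes from a test between groups.

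The limits of these data are the weak lower bound of the lists, the missing strand and depth, and the lack of input levels, so that peak number cannot be set against the abundance of each mRNA.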
